A study of Mus musculus with 8 samples.

Results

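The genes described here are the inflammasome sensors Nlrp3, Aim2 and Nlrc4, their adaptor Pycard, the inflammatory caspase genes Casp1 and Casp4, and the pore-forming executioner Gsdmd. They were chosen by gene symbol and by no cutoff on measured values, though earlier results of these data were known. All 7 were found among the 24391 gene symbols of the count table. The tissue was the atherosclerotic lesion of the mouse brachiocephalic artery (BCA), and each of the 8 RNA-seq libraries is 1 animal. In 4 animals (labelled IL1_AB) an antibody against interleukin-1β (IL-1β) had been injected, and the other 4 (IgG_Control) received IgG. All 8 were C57BL/6 mice, wild type in a smooth muscle lineage tracing line, and had eaten a Western diet for 18 weeks; the sources used here name no disease-causing mutation, Cre driver or age. The labels describe the lesions as a mixture of smooth muscle cells, epithelial cells, macrophages and others, so every value is an average over cell types. Fewer cells of a type and less RNA per cell cannot be told apart in such samples.

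Inflammasomes are protein complexes that assemble in the cytosol, mainly of macrophages and other myeloid cells, when a sensor meets a microbial product or a sign of damage. The sensor recruits the adaptor ASC, encoded by Pycard, which gathers and activates caspase-1; caspase-1 then cleaves the precursors of IL-1β and IL-18, and cleaved gasdermin D opens pores through which these cytokines leave the cell. In plaques, cholesterol crystals are a known trigger of NLRP3. Transcription of Nlrp3 and of Il1b is raised by a priming signal through the transcription factor NF-kB, which IL-1β itself can activate.

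Sequence upstream of 4 annotated starts is shown because IL-1β acts on transcription and these members mark both ends of the group: Nlrp3 and Pycard had the smallest p-values of the members, and Casp4 had the largest. The RefSeq table (GRCm38.p6) had windows for 6 of the 7 members, all but Gsdmd. Each line gives the 250 bases before the start, 5′ to 3′ on the gene's strand, and capitals mark a match to the NF-kB-type motif, spelled GGGA, any base, TT, any base, CC.
Nlrp3, downstream start, chr11:59542436-59542685, plus strand: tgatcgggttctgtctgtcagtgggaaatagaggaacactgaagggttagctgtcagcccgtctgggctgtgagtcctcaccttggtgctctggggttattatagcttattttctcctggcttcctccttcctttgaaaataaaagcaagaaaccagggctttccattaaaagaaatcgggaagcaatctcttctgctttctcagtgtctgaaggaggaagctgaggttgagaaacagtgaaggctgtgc
Nlrp3, upstream start, chr11:59541319-59541568, plus strand: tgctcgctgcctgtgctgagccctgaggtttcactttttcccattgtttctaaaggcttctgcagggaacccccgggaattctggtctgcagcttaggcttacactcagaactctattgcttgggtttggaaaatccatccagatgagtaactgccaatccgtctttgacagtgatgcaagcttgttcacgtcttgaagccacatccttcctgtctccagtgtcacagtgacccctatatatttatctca
Pycard, chr7:127993868-127994117, minus strand: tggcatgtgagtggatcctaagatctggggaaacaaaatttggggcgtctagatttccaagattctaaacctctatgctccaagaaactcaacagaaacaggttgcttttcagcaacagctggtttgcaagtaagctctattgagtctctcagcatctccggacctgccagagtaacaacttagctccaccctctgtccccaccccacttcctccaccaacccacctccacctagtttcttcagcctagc
Casp4, chr9:5308599-5308848, plus strand: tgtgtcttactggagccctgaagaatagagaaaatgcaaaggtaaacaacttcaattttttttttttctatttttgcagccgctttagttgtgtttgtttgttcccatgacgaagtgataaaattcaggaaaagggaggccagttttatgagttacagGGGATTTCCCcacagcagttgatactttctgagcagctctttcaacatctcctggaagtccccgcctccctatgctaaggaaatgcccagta
The motif was searched on both strands, and was chosen after the windows had been read. Its presence or absence in a member's window depends on the spelling chosen, and the share over all windows is no test of it. The motif occurred in 0.98% of the 32851 windows of the same length in the table. Among the members it was found at Casp4 alone, at bases 92 to 83 before the start of the window shown (written -92 to -83) and inside the overlapping second Casp4 window. An interferon-type motif, GAAA, any 2 bases, GAAA, was present in 2.98% of all windows and in no member's window. A match of letters is no evidence of binding, and a missing match says only that these letters are not in this window.

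All 7 members had lower fitted levels in antibody-treated than in IgG lesions, by 13.2% to 26.6%, and no single difference passed the test across all genes. The 3 sensors and the adaptor had the largest differences, with log2 fold changes (antibody over IgG) between -0.45 and -0.40. Gsdmd followed at -0.31 and the caspases at -0.21 and -0.20. Whether 1 member differed from another was not tested, and this order was not fixed. With IgG animal 2 left out, Gsdmd was at -0.17, Casp1 at -0.22 and Casp4 at -0.26. The median over the members was -0.40, against -0.0096 over all 15980 genes kept after a filter on low counts; all 7 members passed that filter, with 127 to 991 reads each per library. A fold change below 0 was found in 52.3% of all genes. With edgeR's quasi-likelihood test, 0 of 15980 genes (0%) passed a Benjamini-Hochberg adjusted p of 0.05. Before adjustment, 509 genes (3.19%) had a p under 0.05, 329 of them (2.06%) lower and 180 (1.13%) higher with the antibody, and 4 of the 7 members were among the 329: Nlrp3, Pycard, Aim2 and Nlrc4. At the adjusted threshold the other tools called few genes, 8 by DESeq2 and 2 by limma-voom with library weights, and no member was among them. The members were selected with earlier results of these data known, so their shares are a description of this group.

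**Figure D1:**
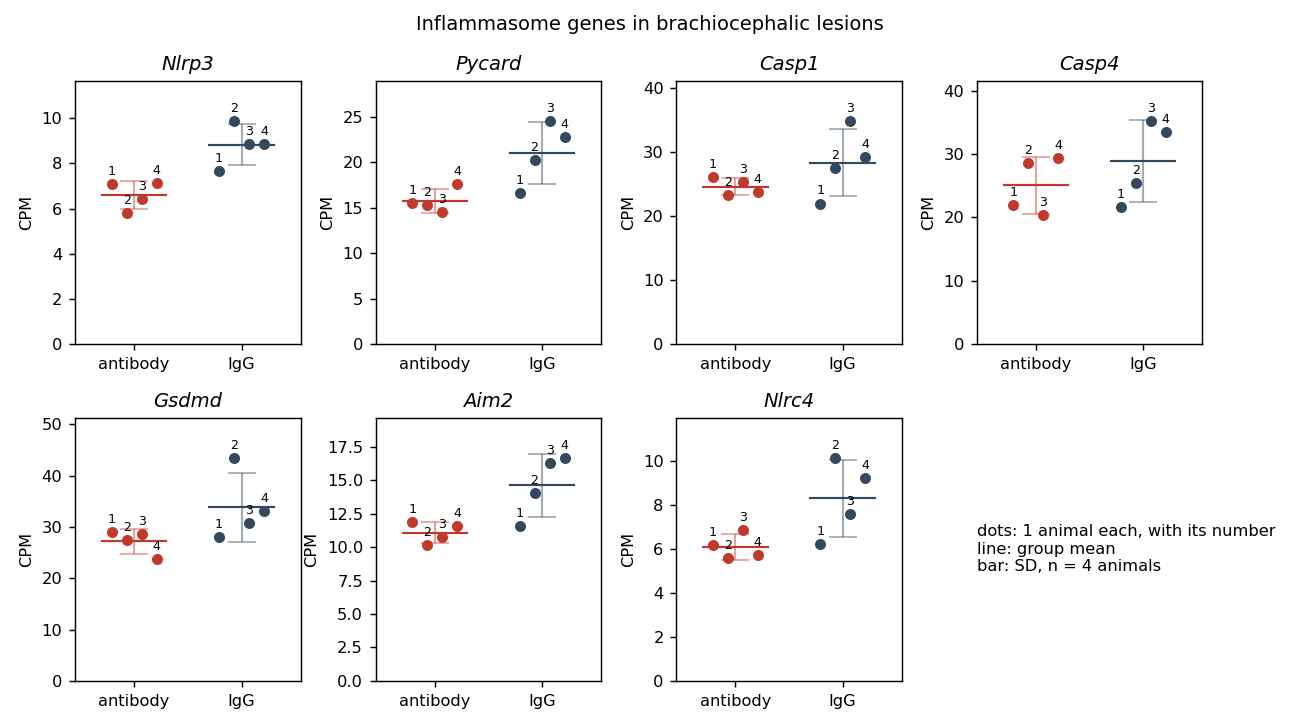
Levels of the 7 inflammasome genes in CPM (vertical axes, from 0), with antibody animals on the left and IgG animals on the right of each panel; each dot is 1 animal with its number, lines are group means and bars the SD (n = 4). Nlrp3 is the only panel in which the groups do not overlap, and IgG animal 1 is the lowest IgG dot in all 7 panels.

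Among the sensors, Nlrp3 (chromosome 11, 59356188 to 59380458, plus strand, mm9) responds to ion fluxes, crystals and membrane damage. It had 7.08, 5.82, 6.43 and 7.12 CPM (read counts relative to library size, scaled by trimmed mean of M values) in antibody animals 1 to 4, against 7.66, 9.87, 8.87 and 8.88 CPM in IgG animals 1 to 4. Every antibody animal lay below every IgG animal, as was so for 1.25% of all genes, and the reverse, every antibody animal above every IgG animal, held for 0.713%. The nearest values were 7.12 CPM in antibody animal 4 and 7.66 CPM in IgG animal 1, from 176 and 224 reads. Read counting alone gives a coefficient of variation of about 7.96% in antibody and 6.51% in IgG animals, so this separation was narrow. The means were 6.61 ± 0.617 CPM in antibody and 8.82 ± 0.902 CPM in IgG animals (SD, n = 4 each), a log2 fold change of -0.42 ± 0.14 (SE). Its 95% interval of -0.73 to -0.10 corresponds to levels 6.48% to 39.9% lower with the antibody. It ranked 171 of 15980 genes by p, with an adjusted p of 0.9997 (edgeR), the value that all 7 members shared.

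Aim2 (chromosome 1, 175350735 to 175396167, plus strand) encodes a sensor of double-stranded DNA in the cytosol. Its values were 11.9, 10.1, 10.7 and 11.6 CPM in antibody animals 1 to 4 and 11.6, 14.02, 16.3 and 16.7 CPM in IgG animals 1 to 4. The 4 antibody values were tightly grouped, and IgG animal 1 lay among them while the other 3 IgG animals lay above. The log2 fold change was -0.40 ± 0.14 (95% interval -0.72 to -0.080; rank 205 by p).

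Nlrc4 (chromosome 17, 74825635 to 74858448, minus strand) encodes the sensor that joins with NAIP proteins after they bind bacterial flagellin or secretion-system proteins. It was at 6.20, 5.61, 6.87 and 5.71 CPM in antibody animals 1 to 4 and at 6.23, 10.1, 7.61 and 9.25 CPM in IgG animals 1 to 4. IgG animals 2 to 4 lay above all antibody animals and IgG animal 1 did not. Its log2 fold change of -0.45 was the largest in size of the members and the least precise of the 3 sensors (SE 0.18, 95% interval -0.85 to -0.041; rank 346 by p).

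Pycard (chromosome 7, 135134887 to 135137381, minus strand) encodes ASC, which links the sensors to caspase-1. It had 15.5, 15.4, 14.5 and 17.6 CPM in antibody animals 1 to 4 and 16.6, 20.2, 24.5 and 22.8 CPM in IgG animals 1 to 4. Antibody animal 4 exceeded IgG animal 1, and these were the only values that crossed between the groups. The means were 15.8 ± 1.33 CPM in antibody and 21.03 ± 3.44 CPM in IgG animals (SD, n = 4 each). The log2 fold change was -0.42 ± 0.14 (95% interval -0.73 to -0.10), and its rank of 149 by p was the highest of the members.

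The caspase genes had the smallest fold changes of the members in the fit with all 8 animals. Casp1 (chromosome 9, 5298517 to 5307281, plus strand), the protease that matures IL-1β and IL-18, had 26.1, 23.2, 25.2 and 23.7 CPM in antibody animals 1 to 4 and 21.9, 27.4, 34.8 and 29.2 CPM in IgG animals 1 to 4. The lowest of the 8 values was that of IgG animal 1, and the highest that of IgG animal 3, so the IgG range enclosed the antibody range. Its log2 fold change was -0.21 ± 0.14 (95% interval -0.52 to 0.11; rank 2107 by p), and with 1 library left out it ranged from -0.31, without IgG animal 1, to -0.09, without IgG animal 3.

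Casp4 (chromosome 9, 5308849 to 5336791, plus strand) is the mouse gene for caspase-11, which binds bacterial lipopolysaccharide in the cytosol and cleaves gasdermin D without a sensor of the NLR family. It lies 1567 bases from Casp1 in mm9. Its values were 22.01, 28.5, 20.4 and 29.4 CPM in antibody animals 1 to 4, against 21.7, 25.4, 35.2 and 33.4 CPM in IgG animals 1 to 4. The antibody animals split into a higher pair, 2 and 4, and a lower pair, 1 and 3, and the groups overlapped. The log2 fold change was -0.20 ± 0.19 (95% interval -0.62 to 0.21; rank 3888 by p). With 1 library left out it ranged from -0.31, without IgG animal 1, to -0.10, without IgG animal 3, and it was -0.12 without antibody animal 3, -0.13 without IgG animal 4, and -0.14 without antibody animal 1. Casp1 and Casp4 are related in sequence; reads with several alignments were left out of the counts, and neither gene shares annotated exon bases with another gene of the table.

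Casp4 and Casp1, although neighbours, did not keep a fixed ratio. Casp4 CPM divided by Casp1 CPM was 0.845, 1.23, 0.809 and 1.24 in antibody animals 1 to 4 and 0.988, 0.928, 1.01 and 1.15 in IgG animals 1 to 4. The highest pair and the lowest pair of ratios were all in antibody animals. The summed CPM of 6 smooth muscle markers was 2040, 3846, 1406 and 3328 in antibody animals 1 to 4 and 2854, 2164, 2605 and 2391 in IgG animals 1 to 4. It was highest in antibody animals 2 and 4 and lowest in antibody animals 3 and 1, the same pairs as for the ratio. Among IgG animals the order differed, with animal 1 highest for the marker sum and animal 4 for the ratio. Of the 12 marker lists, only the smooth muscle list was set against the ratio, so the match is not shown to be particular to it. The fibroblast sum was also lowest in antibody animal 3, though highest in IgG animal 3. The part of the smooth muscle markers in the ratio was not tested.

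Gsdmd (chromosome 15, 75692769 to 75697834, plus strand) encodes the pore-forming protein that both caspases cut. It had 29.0, 27.4, 28.6 and 23.7 CPM in antibody animals 1 to 4 and 28.1, 43.4, 30.7 and 33.0 CPM in IgG animals 1 to 4. IgG animal 2 was far above the rest of its group and IgG animal 1 was inside the antibody range. The log2 fold change was -0.31 ± 0.15 (95% interval -0.65 to 0.018; rank 637 by p). Without IgG animal 2 it was -0.17.

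**Figure D2:**
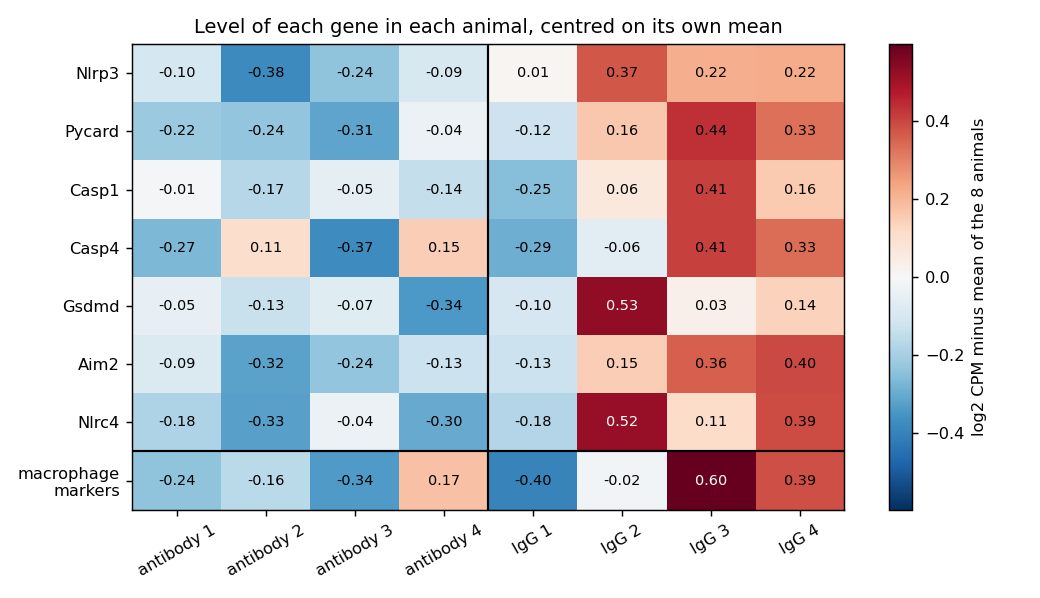
Log2 CPM of each gene minus its own mean over the 8 animals (colour and printed value), with antibody animals in the left 4 columns and IgG animals in the right 4; the bottom row is the mean log2 CPM of 10 macrophage markers, centred the same way. IgG animal 1 is below the mean for 6 of 7 genes and for the macrophage markers (-0.40), while IgG animals 3 and 4 are above it throughout.

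The members were not all highest in the same animal. Nlrp3, Gsdmd and Nlrc4 peaked in IgG animal 2, Pycard, Casp1 and Casp4 in IgG animal 3, and Aim2 in IgG animal 4. The highest animal was an IgG animal for all 7 members, and the lowest was an antibody animal for 6; the exception was Casp1. For 5 members (Pycard, Casp1, Gsdmd, Aim2 and Nlrc4) 3 of the 4 IgG animals lay above every antibody animal. The 1 that did not was IgG animal 1 each time. How many of all genes had such orders was not counted, so these counts only describe the members. On the log2 scale, centred on each member's own mean and averaged over the 7, the level was -0.13, -0.21, -0.19 and -0.13 in antibody animals 1 to 4 and -0.15, 0.25, 0.28 and 0.28 in IgG animals 1 to 4. IgG animal 1 therefore sat with the antibody animals on this average.

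The antibody animals varied less among themselves than the IgG animals did. The coefficient of variation was smaller in antibody animals for all 7 members, as it was for 66.5% of all genes kept. For Casp1 it was 5.40% in antibody and 18.7% in IgG animals, where read counting alone gives about 4.13% and 3.67%. For Nlrp3 it was 9.33% and 10.2%, with counting at 7.96% and 6.51%, and for Casp4 18.0% and 22.3%, with counting at 4.14% and 3.65%.

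Without IgG animal 1, 6 of the 7 members had an unadjusted p under 0.05 (edgeR), all but Casp4, and the log2 fold changes of Nlrp3, Pycard, Aim2 and Nlrc4 were -0.48, -0.51, -0.50 and -0.56. In that fit the background was higher too, with 646 genes (4.04%) lower at an unadjusted p under 0.05. None of the members passed the adjusted threshold there (smallest adjusted p = 0.5075). Without IgG animal 4, 2 members, Nlrp3 and Pycard, had an unadjusted p under 0.05 (edgeR). The background was lower there, with 216 genes (1.35%) lower at that level.

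**Figure D3:**
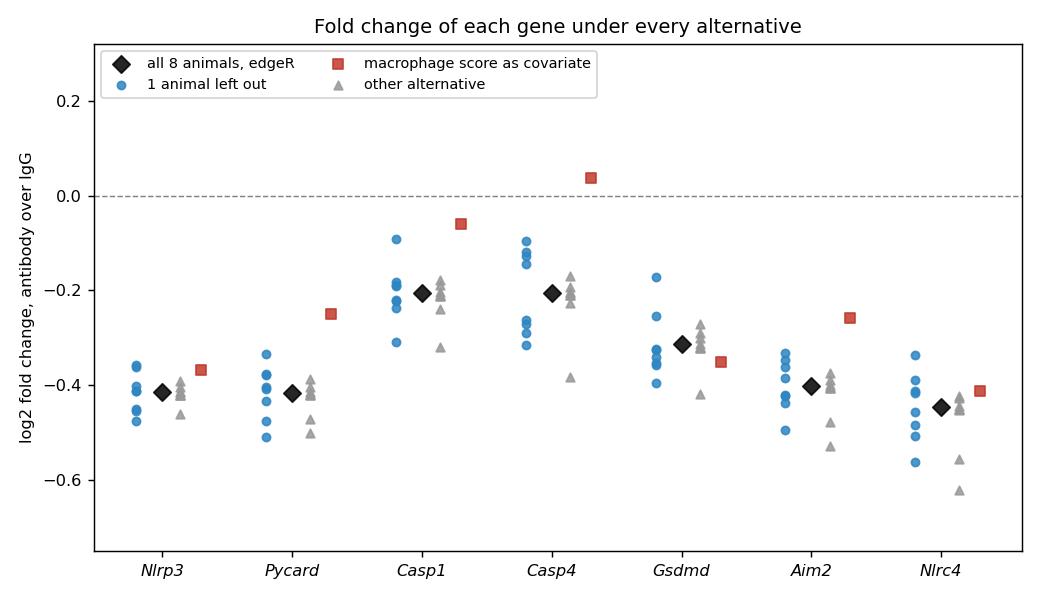
Log2 fold change of each gene, antibody over IgG (vertical axis), with all 8 animals (diamond), with 1 animal left out (circles), with a macrophage marker score as covariate (square) and under the other alternatives (triangles). All points lie below 0 except the square of Casp4 at 0.036.

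Macrophage markers differed in the same direction as the members. The 10 markers (Cd68, Adgre1, Csf1r, Lgals3, Mrc1, C1qa, C1qb, C1qc, Itgam and Fcgr1) were detected in every library. Against 52.3% of all genes, 10 of 10 markers had log2 fold changes below 0, with a median of -0.33 and 0 past the adjusted threshold. Their summed level was 2265 to 3248 CPM in antibody animals and 2055 to 4514 CPM in IgG animals, lowest in IgG animal 1 and highest in IgG animal 3. With the mean log2 CPM of these markers as a covariate in the edgeR fit, Casp1 had a log2 fold change of -0.059 and Casp4 of 0.036, a change of sign. Nlrp3 had -0.37, Nlrc4 -0.41 and Gsdmd -0.35, while Pycard had -0.25 and Aim2 -0.26. Before adjustment Nlrp3 and Pycard had a p under 0.05 in this fit, in which 359 of all genes (2.25%) were lower at that level. All 7 adjusted p-values were 1, and whether one member differed from another in this fit was not tested.

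Set against the summed markers directly, Nlrp3 stood at 2.89, 2.38, 2.84 and 2.19 CPM per 1000 CPM of macrophage markers in antibody animals 1 to 4 and at 3.73, 3.495, 1.97 and 2.45 in IgG animals 1 to 4. IgG animals 1 and 2 were highest and IgG animal 3 lowest, so the groups that did not overlap in CPM overlapped on this scale. Casp1 was at 9.65 ± 1.71 in antibody and 9.03 ± 1.397 in IgG animals on the same scale (SD, n = 4 each), and Pycard at 6.12 ± 0.459 in antibody and 6.74 ± 1.14 in IgG animals. The part of the macrophage markers in the differences between antibody and IgG lesions was not tested.

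Markers of other cells the samples could hold were measured alongside. The neutrophil list summed to 11.7 to 19.1 CPM in antibody and 12.2 to 18.6 CPM in IgG animals, with 3 of its 6 kept genes lower, and the dendritic cell list to 35.2 to 41.1 and 34.8 to 44.2 CPM, with 4 of 6 lower. T cell markers were lower for 6 of 6 (13.7 to 44.2 CPM in antibody and 22.9 to 50.7 CPM in IgG animals) and B cell markers for 5 of 5 (2.93 to 5.82 and 4.33 to 16.2 CPM). The epithelial cells named in the labels left little signal, with 3 of 3 kept markers lower, at 8.09 to 12.97 CPM in antibody and 10.1 to 35.7 CPM in IgG animals, with Epcam and Krt5 at 0 in at least 1 library each. IgG animal 1 was the highest of all 8 for the T cell, B cell and epithelial sums. Fibroblast markers were lower for 5 of 5, with a median log2 fold change of -0.29 (710 to 1431 CPM in antibody and 924 to 2317 CPM in IgG animals). Adipocyte markers were higher for 4 of 4, with a median of 0.35 (1437 to 4559 CPM in antibody and 1695 to 2297 CPM in IgG animals), and the highest sum was that of antibody animal 3. Smooth muscle markers were higher for 5 of 6 (1406 to 3846 CPM in antibody and 2164 to 2854 CPM in IgG animals), mast cell markers for 3 of 4 (40.8 to 71.6 and 42.2 to 59.0 CPM) and endothelial markers for 2 of 6 (1395 to 1614 and 1388 to 1683 CPM). No marker passed the adjusted threshold (edgeR), and 5 of those kept had an unadjusted p under 0.05, all lower. Over all genes, 2.06% were lower at that level, and 52.3% had a fold change below 0. Of the erythroid markers, Hba-a1 and Hbb-b1 were at 0 in every library, 1 of the 2 kept was lower, and the list summed to 42.2 to 88.3 CPM in antibody and 30.3 to 109 CPM in IgG animals. Their part in the members' values was not tested.

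Levels can be compared between genes only per exon length. The order by mean CPM per kb of exon over the 8 animals was Casp4, Casp1, Gsdmd, Pycard, Aim2, Nlrp3 and Nlrc4. Casp4 stood at 17.4 ± 3.14 CPM per kb in antibody and 20.05 ± 4.47 in IgG animals, Casp1 at 16.2 ± 0.876 and 18.7 ± 3.496, and Gsdmd at 15.3 ± 1.37 and 19.0 ± 3.79 (SD, n = 4 each). These 3 did not differ beyond their spread: Casp4 exceeded Casp1 in 5 of 8 animals and Casp1 exceeded Gsdmd in 5 of 8. Gsdmd exceeded Pycard in 8 of 8, Pycard exceeded Aim2 in 8 of 8, and Aim2 exceeded Nlrp3 in 8 of 8.

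Pycard stood at 7.38 ± 0.623 CPM per kb in antibody and 9.85 ± 1.61 in IgG animals, and Aim2 at 4.37 ± 0.319 and 5.77 ± 0.927. The sensors Nlrp3 and Nlrc4 were lowest, Nlrp3 at 1.64 ± 0.153 CPM per kb in antibody and 2.19 ± 0.224 in IgG animals and Nlrc4 at 1.59 ± 0.150 in antibody and 2.16 ± 0.453 in IgG animals. Nlrp3 exceeded Nlrc4 in 4 of 8 animals, so these neighbours were not separated. For Pycard, 1 annotated block of 1593 bases makes up most of its 2135 exon bases, and its level per kb averages over that block. The place of Pycard in the order, and its level below Gsdmd, therefore depend on this annotated length.

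**Figure D4:**
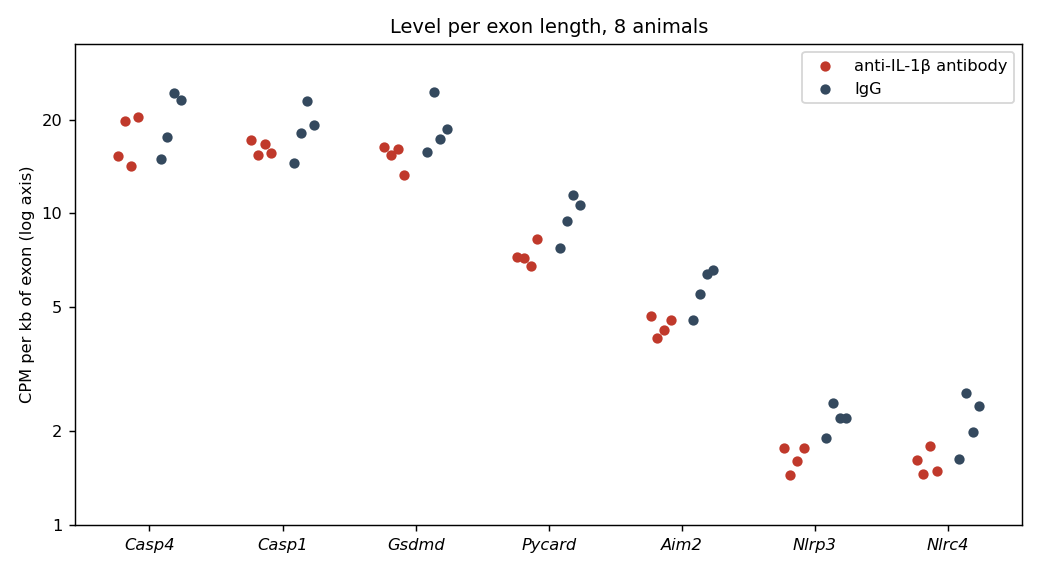
CPM per kb of exon (logarithmic vertical axis) for the 7 genes in descending order of the mean; each dot is 1 animal, antibody animals left and IgG animals right within a gene. Casp4, Casp1 and Gsdmd share the range from 13.3 to 24.5, and Nlrp3 and Nlrc4 share the range from 1.45 to 2.64.

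Of 34 other genes of the pathway, 32 were kept, and Nlrp6 and Nlrp12 were left out at 0 to 8 and 2 to 15 reads per library. Of the 32, 21 had a fold change below 0, 0 passed the adjusted threshold in either direction (edgeR), and 1, Il1b, had an unadjusted p under 0.05. Over all genes, 52.3% were below 0 and 3.19% had an unadjusted p under 0.05, and 1 of 32 is close to the second share. These shares stand beside the counts of each list below as well. The median log2 fold change of the 32 was -0.16. The cytokine genes were lower for 3 of 3: Il1b and Il18, whose products caspase-1 matures, and Il1a, whose product other proteases cut. Il1b had 4.39, 5.19, 3.85 and 4.57 CPM in antibody animals 1 to 4 and 5.88, 7.52, 9.66 and 14.2 CPM in IgG animals 1 to 4. Its antibody values all lay below its IgG values, as for 1.25% of all genes, and the log2 fold change was -1.05 ± 0.26. Il1a had -0.48 ± 0.40 and Il18 -0.31 ± 0.22.

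The other sensors and receptors were lower for 7 of 7 kept genes, with a median of -0.28 and 0 at an unadjusted p under 0.05. Nlrp1b, a sensor that bacterial proteases such as anthrax lethal factor activate, had 17.9, 12.2, 13.2 and 11.6 CPM in antibody animals 1 to 4 and 13.9, 33.1, 15.2 and 20.99 CPM in IgG animals 1 to 4. IgG animal 2 was the highest here as it was for Gsdmd, the groups overlapped, and the log2 fold change was -0.60 ± 0.27. Naip5, the flagellin receptor that acts with Nlrc4, had -0.27 ± 0.16. The Nlrp1 and Naip genes are families of related copies, and their levels rest on uniquely placed reads only.

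The other caspases and pore formers were lower for 4 of 4, the closest to the threshold being Casp8, a caspase of cell death pathways that can also process IL-1β, at 35.9 ± 2.79 CPM in antibody and 43.7 ± 6.39 CPM in IgG animals (SD, n = 4 each; log2 fold change -0.28 ± 0.13, rank 520 by p). Gsdme, listed under its older symbol Dfna5 and encoding another gasdermin, had -0.22 ± 0.15. Genes of activation and licensing were mixed, with 4 of 7 lower and a median of -0.080. Kcnk6, a potassium channel gene, had -0.25 ± 0.18 and Brcc3, which encodes a deubiquitinase acting on NLRP3, 0.19 ± 0.14.

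The interferon-induced GTPase genes and Zbp1, which act upstream of caspase-11 and NLRP3, were the 1 list with no member lower: 6 of 6 fold changes were above 0, with a median of 0.15. Antibody animal 3 had the highest summed level of the list, 543 CPM, against 262 CPM in the highest IgG animal. Without that animal 0 of 6 were above 0, with Gbp3 at -0.08 and Gbp7 at -0.09. Gbp3 had 53.3, 48.9, 193 and 66.3 CPM in antibody animals 1 to 4 and 61.7, 67.3, 54.9 and 54.1 CPM in IgG animals 1 to 4 (log2 fold change 0.60 ± 0.41). Gbp7 was at 196 CPM in antibody animal 3 and at 62.8 to 78.8 CPM in the other 3, against 65.3 to 84.1 CPM in IgG animals (0.46 ± 0.34). None of the 7 members was highest in antibody animal 3. Among genes that restrain or modify inflammasomes 3 of 5 were lower, with Pydc3 at 0.44 ± 0.42 and Pydc4 at -0.22 ± 0.24, both of a family of related copies.

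**Figure D5:**
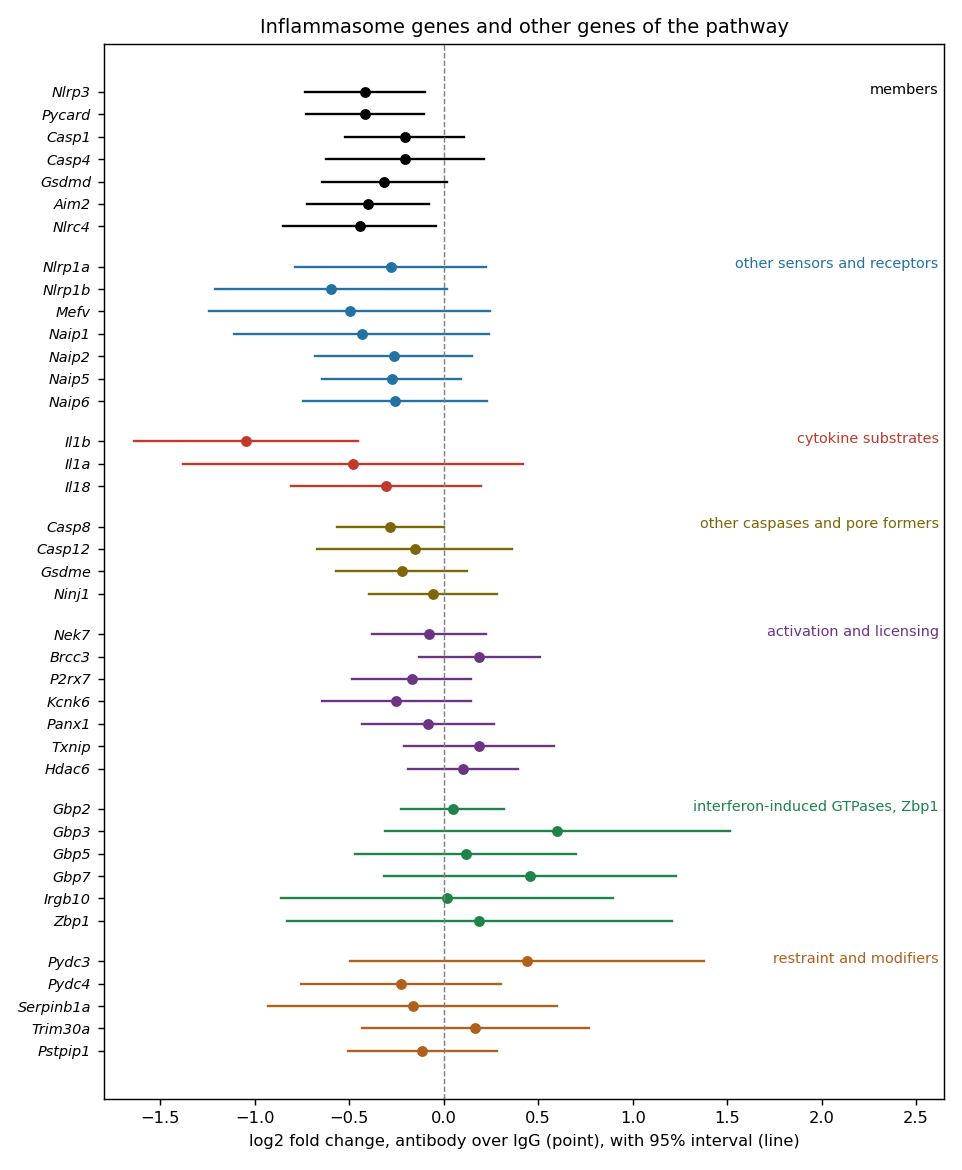
Log2 fold change, antibody over IgG (points), with 95% intervals (lines), for the 7 members at the top and the 32 other pathway genes kept, grouped by role. The intervals of Nlrp3, Pycard, Aim2, Nlrc4 and Il1b lie below 0, and the points of the interferon-induced genes lie above 0 with all 8 animals, but not without antibody animal 3.

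The genes whose levels followed a member most closely were found by Pearson's r of log2 CPM over the 8 libraries, among 14735 candidate genes. Being the best of so many, and over libraries that share depth and tissue makeup, they are a description with no test. Ptprc, which encodes the leukocyte marker CD45, was closest to Pycard (r = 0.981, and 0.952 after removal of the group means). H2-K1, a class I antigen presentation gene, was closest to Nlrp3 (0.959 and 0.849), followed by Il6ra. Osmr, a receptor gene for oncostatin M, was closest to Casp4 (0.992 and 0.992) and Abhd12 to Casp1 (0.972 and 0.976). Fam21 was closest to Gsdmd (0.977 and 0.964), Tmem26 to Aim2 (0.960 and 0.917) and Rnf111 to Nlrc4 (0.986 and 0.983). For the average of the 7 members it was Rac2, a haematopoietic small GTPase gene (0.995 and 0.995), with a log2 fold change of -0.40.

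Assigned counts were 20137336 to 27100415 per library in antibody and 21902802 to 29453014 in IgG animals, with 27.9% to 34.1% and 24.4% to 34.9% of alignments assigned. IgG animal 2 had the lowest assigned share and the highest multimapping share (48.0%). Every pair of libraries differed by more than read counting alone gives (lowest chi-square per degree of freedom 26.5). With total-count scaling in place of trimmed mean scaling, 46.9% of the genes at an unadjusted p under 0.05 were lower with the antibody, against 64.6%; the 7 members were below 0 under both.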

How the data were processed

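The deposited values were raw read counts per gene symbol for 8 libraries, with a table of alignment counts by status. Exon reads were summed by gene name with featureCounts 1.4.6-p4 on the UCSC mm9 annotation, per the file headers; the header shows no strand, pair or multimapping option, and the status table lists multimapping and ambiguous reads as unassigned. The authors' other tools were DESeq2, Subread, STAR 3.0 and CASAVA, per the submitters' processing notes. The deposited table's other measure, exon length in bases, is the authors' value and entered levels per kb only.

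The antibody and IgG groups came from the sample titles. Genes were kept by edgeR's filterByExpr (minimum count 10, minimum total 15), scaled by trimmed mean of M values and tested with edgeR 4.0.16 (R 4.3.3) by the quasi-likelihood F-test, robust, with no covariate and Benjamini-Hochberg adjustment over all 15980 genes kept. The fit was tested on simulated data. Standard errors came from the fold change and F statistic, and intervals from its degrees of freedom. Alternatives used DESeq2 1.42.0, limma 3.58.1, other scalings and filters, the replicate number, a macrophage score, and each library left out. The members, 6 pathway lists, 12 marker lists and tests were chosen with earlier results of these data known. Named pathway genes were those at an unadjusted p under 0.05, the 2 smallest p per list, and Il1b, Il1a and Il18; nearest patterns were the 3 highest r, of which the first is given for each member and 1 gene is not reported here. Ly6g, a listed neutrophil marker, was not analysed here. Counting errors cover reads only.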

Additional observations from a re-analysis of the deposited data

Results flagged for a closer look

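In antibody animal 3, 5 of the 6 interferon-induced genes stood apart above the other 3 animals of the group by Dixon's criterion, in which the gap to the nearest animal over the group's range passes the 95% limit for 4 values. Gbp3 was at 193 CPM there against 66.3 CPM in the next antibody animal (gap over range 0.879), and Gbp7 at 196 CPM against 78.8 CPM (0.88). Gbp5 was at 34.1 CPM against 19.95 CPM (0.861), Gm12250, the table's symbol for Irgb10, at 20.3 CPM against 6.96 CPM (0.911), and Zbp1 at 31.02 CPM against 10.2 CPM (0.839). Panx1, a membrane channel gene, was low in the same animal, at 7.96 CPM against 11.4 CPM in the next (0.958). Pstpip1, whose product binds pyrin, was high in antibody animal 1, at 39.1 CPM against 32.5 CPM (0.902). Gbp2 was high in IgG animal 4, at 61.02 CPM against 53.1 CPM in the next IgG animal (0.843). These were 8 of 78 groups of 4 animals examined, over the members and the 32 pathway genes kept, and chance gives about 1 in 20. Genes of 1 library are not independent of each other. In none of the 14 groups of the members did an animal stand apart in this way.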

How the results depend on the processing

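Of 17 alternatives, all kept the 7 members below 0 except the macrophage covariate, with 6 and Casp4 at 0.036. No member passed an adjusted p of 0.05 in any (0.150 to 1). Fits share the same animals. An unadjusted p under 0.05 was found for Pycard in 17 of 17, Nlrp3 in 16, Aim2 in 14, Nlrc4 in 10, Casp1 and Gsdmd in 3 each and Casp4 in 1. The count of members at that level, 4 of 7 in the main fit, was 7 with limma-voom and 2 with the macrophage covariate. With 1 library left out it ranged from 2, without IgG animal 4, to 6, without IgG animal 1. The shares of all genes lower at that level in these fits were, in the same order, 2.06%, 9.33%, 2.25%, 1.35% and 4.04%. Genes past the adjusted threshold numbered 8 in DESeq2, 2 in limma-voom, and 0 to 1 with 1 library left out, the 1 without antibody animal 2 or without IgG animal 1. Genes at an unadjusted p under 0.05 numbered 2772 in limma-voom and 310 (without IgG animal 4) to 1517 (without IgG animal 1) with 1 left out, 783 without antibody animal 2 and 336 without antibody animal 3. Without both IgG animal 1 and antibody animal 3, a choice made after seeing the data, there were 997. In that fit 28 of the 32 pathway genes were below 0, against 21, and 53.4% of all genes, against 52.3%. The cause of the difference between the fits was not tested. The sample titles state no pairing of animals by replicate number. Deviations of same-numbered animals correlated at 0.29, -0.34, -0.13 and -0.0012, which shows no common pairing but cannot exclude one. With the number as a block, 2 members, Pycard and Aim2, had an unadjusted p under 0.05 (edgeR), both lower. In that fit 232 of all genes (1.45%) were lower at that level. With 4 animals a group, the median half-width of the 95% interval over all genes was 0.40 on the log2 scale, as large as the members' median difference.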
